A study of Sus scrofa with 4 samples.

Results

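ROR1 codes for a receptor of the cell surface described here in duct cells taken from pig pancreas, in the other cells of that organ and in duct organoids grown in culture. It was 1 of 30282 gene identifiers in the count tables (ENSSSCG00000003811), and its counts were summed over 2 features, the gene model and a 3′ extension of 9 kb. The gene was chosen with its pattern in these data already known, by its level and by the share of cells that carried it, so both are given as descriptions and without a test. RefSeq places ROR1 on chromosome 6 of the Sscrofa11.1 build, from base 148314575 to base 148834659. This span of 520085 bases is longer than that of 98.9% of 20663 protein-coding genes, whose median span is 19160 bases. The sources used here do not give whether reads in introns were counted, and the level of so long a gene may depend on it. The extension held 155 of all 117165 ROR1 UMIs (0.132%), so the values below are in practice those of the gene model.

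ROR1 and its relative ROR2 are single-pass receptors that bind WNT5A, a secreted ligand, and pass the signal on without beta-catenin, to the actin cytoskeleton and JNK kinases. Frizzled receptors, the membrane proteins VANGL and CELSR, and the adaptors DVL and PRICKLE belong to the same planar polarity pathway, which orients cells within a sheet. ROR1 is best known from the embryo and from tumours, where antibodies against it are being tried as treatment.

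The libraries were made with the 10x Genomics 3′ kit, in which each captured RNA molecule carries a unique molecular identifier (UMI). There were 2 libraries of primary pancreas and 2 of porcine pancreatic ductal organoids (PPDO). The primary cells came from 2 pigs of German landrace background near reproductive maturity, 1 wild-type and 1 with an INS-eGFP transgene, in which the porcine insulin promoter drives a green marker in beta cells, and the pigs were processed on different days. Taking the library numbers as the study's sample numbers, primary pancreas 1 held live cells of ducts picked by hand and primary pancreas 2 pooled cells sorted for binding of the DBA lectin, cells sorted for eGFP and unselected cells, so animal, genotype, day and sort cannot be told apart. The PPDO came from 2 lines at passage 4 and 7, and the line behind each library is not named in its label. The study describes the donors as a late postnatal and an adult pig, although the ages in its methods both fall in its late postnatal range. By its account most cells had shifted to a less mature duct phenotype at these passages. Cultures of earlier passages were not measured here. PPDO were grown in a basement membrane gel in a medium with WNT3a, R-spondin-1, noggin, FGF10, EGF and an ALK5 inhibitor, so primary origin and culture cannot be told apart in any comparison of PPDO with primary cells.

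After limits on features and mitochondrial share and, in primary pancreas, removal of doublets, 8885 and 7337 PPDO cells and 5671 and 4261 primary cells were kept. Before these steps any pair of libraries shared 10 to 23 cell barcodes. Primary cells fell into 24 clusters, which were named from marker genes of 8 cell classes. Ductal-like cells numbered 2165 and 1188, with medians of 17871 and 20559 UMIs per cell, while PPDO cells had medians of 34176 and 34459. The ductal name rested on 6 to 8 of 8 matched markers in each of its 5 clusters, among them CFTR, the chloride channel of duct cells, at 952 and 795 UMIs in 1000000 (CPM). KRT19 and MUC1 had no symbol of their own in the tables and were not used. The class drew on different clusters in the 2 pancreata. Clusters 0 and 5 came from primary pancreas 1 alone, cluster 23 from primary pancreas 2 alone, cluster 1 from primary pancreas 2 but for 1 cell, and cluster 8 held 438 and 17 cells.

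In primary ductal-like cells ROR1 reached 979 CPM in primary pancreas 1 (95% exact Poisson interval 970 to 989) and 1212 CPM in primary pancreas 2 (1199 to 1226). In PPDO it was 0.817 CPM (0.718 to 0.926) in library 1 and 0.774 CPM (0.671 to 0.888) in library 2. These intervals, like the others here, cover counting error only. The mean was 1096 ± 165 CPM in ductal-like cells and 0.796 ± 0.0308 CPM in PPDO (SD, n = 2 libraries each), and the groups lay far apart. The ratio of the means was 1378, and it ran from 1198 to 1567 over the 4 pairings of a primary with a PPDO library. In UMIs, 42336 and 30747 were counted in the ductal-like cells and 246 and 203 in all PPDO cells, although the PPDO libraries were the deeper ones. A difference of this size was not particular to ROR1. KNG1, another gene high in ductal-like cells, stood at 673 and 755 CPM there and at 0.0365 and 0.0267 CPM in PPDO.

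Cell depth was then held alike in 2 ways. Among cells with 5000 to 20000 UMIs, ROR1 stood at 896 and 1109 CPM in ductal-like cells and at 0.591 and 0.598 CPM in PPDO. When every cell was reduced by random draw to 3000 UMIs, 86.8% (95% exact Clopper-Pearson interval 85.3 to 88.3) and 91.8% (90.1 to 93.3) of ductal-like cells still held a ROR1 UMI. In PPDO 13 of 8824 cells (0.147%, 0.0785 to 0.252) and 14 of 7327 cells (0.191%, 0.105 to 0.320) did so. This step left out 113 ductal-like cells of primary pancreas 1 and 61 and 10 PPDO cells that were shallower. Without it the shares were 95.6% and 99.0% in ductal-like cells and 1.92% and 1.80% in PPDO.

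Immune-like cells, which are not known for ROR1, served as the level in cells that should lack the gene. At 3000 UMIs 2.70% (1.58 to 4.29) and 3.62% (1.19 to 8.25) of them held a ROR1 UMI, and their median depths before the draw were 6695 and 9129 UMIs. The share in PPDO was below this level in both libraries, and no expression is read from that share. Free RNA differs from library to library, and the PPDO libraries hold no class that could serve in the same way. In primary pancreas 1, 152 of the 178 UMIs of the immune-like class lay in 9 of its 709 cells, and the highest cell held 45. For each UMI of CFTR there were 1.03 ROR1 UMIs in ductal-like cells of primary pancreas 1 and 0.989 in its immune-like cells. In primary pancreas 2 the ratios were 1.53 and 2.86, the latter from 20 and 7 UMIs. The ratio was 3.45 and 4.31 in endothelial-like cells and 3.70 in the Schwann-like cells of primary pancreas 1, above that of duct cells in each animal. In primary pancreas 1, 95 of the 138 ROR1 UMIs of endothelial-like cells lay in the 0.652% of them with at least 3. Mural-like cells held 231 and 33.0 ROR1 UMIs per CFTR UMI and endocrine-like cells 150 and 266, far above the ratio of duct cells. These ratios rest on 12 and 4 CFTR UMIs in mural-like cells and on 6 and 129 in endocrine-like cells. What part free RNA had in these levels was not tested. PPDO held 0.783 and 1.22, at 1.04 and 0.636 CPM of CFTR, so both genes were low there.

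**Figure D1:**
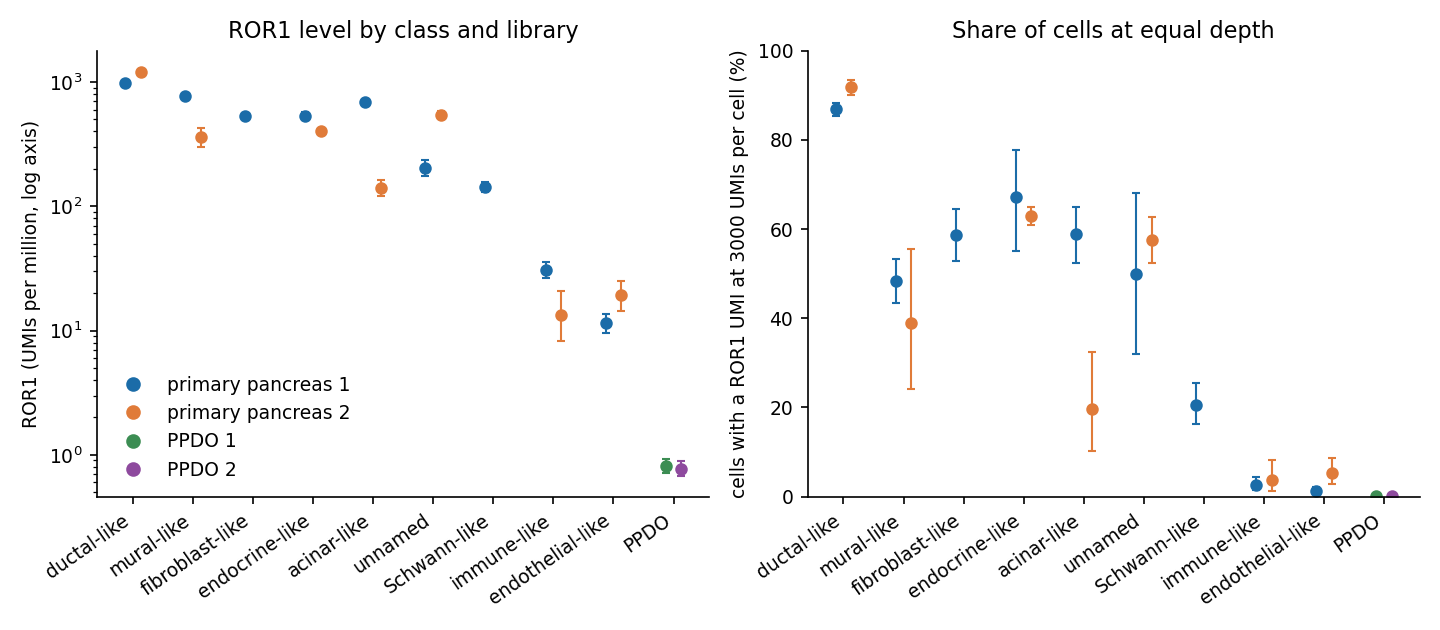
ROR1 level in CPM on a log axis (left) and percent of cells with a ROR1 UMI after reduction to 3000 UMIs per cell (right), by cell class (x axis) and library (colour); bars are 95% counting intervals, and classes under 20 cells in a library are left out. Ductal-like cells stand highest at 979 and 1212 CPM, a middle group of classes lies between 141 and 777 CPM, and PPDO lie below 1 CPM.

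Single cells showed the same order. The median ductal-like cell carried 14 ROR1 UMIs in primary pancreas 1 and 22 in primary pancreas 2, the cells at the 10th and 90th percentile carried 2 and 44, and 7 and 50, and the highest cells 127 and 118. At least 3 UMIs were found in 88.5% and 97.0% of ductal-like cells. In PPDO 8714 of 8885 and 7205 of 7337 cells carried none, and 142 and 101 carried a single UMI. At least 3 UMIs were found in 16 and 14 PPDO cells, and those few cells held 78 of the 246 and 68 of the 203 UMIs of their libraries.

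**Figure D2:**
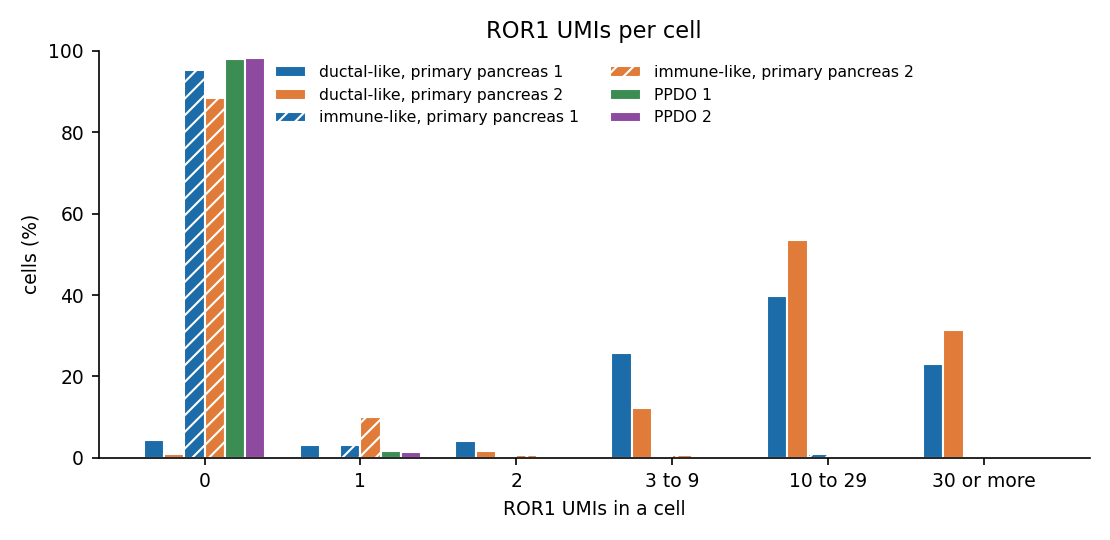
Percent of cells (y axis) with 0, 1, 2, 3 to 9, 10 to 29 and 30 or more ROR1 UMIs (x axis), for ductal-like cells, immune-like cells (hatched) and PPDO of each library. Ductal-like cells mostly hold 10 or more UMIs, whereas over 88% of immune-like cells and over 98% of PPDO cells hold none.

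Across the primary classes ROR1 was spread well beyond the duct. Mural-like cells, the contractile cells of vessel walls, held 777 and 361 CPM (438 and 41 cells). Fibroblast-like cells held 533 CPM in primary pancreas 1, and the 7 such cells of primary pancreas 2 were too few to count. Endocrine-like cells held 533 and 403 CPM and acinar-like cells, the makers of digestive enzymes, 687 and 141 CPM. From mural-like to acinar-like each class overlapped the next in the order of means, so these classes cannot be ranked. Schwann-like cells of primary pancreas 1 followed with 142 CPM, level with the lower acinar-like value. Immune-like cells (30.6 and 13.4 CPM) and endothelial-like cells (11.5 and 19.2 CPM) overlapped each other at the bottom, above PPDO. Among cells with 5000 to 20000 UMIs, acinar-like cells held 827 and 40.2 CPM, immune-like cells 17.2 and 15.9 CPM and endothelial-like cells 5.98 and 20.9 CPM, so several of these levels depended on which cells were counted. Clusters that no marker list could name held 204 and 545 CPM. Within a pancreas, the duct level was 1.26-fold (1.21 to 1.31) and 3.35-fold (2.83 to 4.01) that of mural-like cells and 32.0-fold (27.6 to 37.3) and 90.3-fold (58.4 to 148) that of immune-like cells.

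The place of the endocrine-like cells depended on INS and on which cells were counted. INS, the insulin gene, took 37.8% and 52.8% of their UMIs, and with INS left out of every total ROR1 stood at 858 and 854 CPM in endocrine-like and at 980 and 1222 CPM in ductal-like cells. Among cells with 5000 to 20000 UMIs, endocrine-like cells reached 787 CPM (22 cells) and 1331 CPM (326 cells), beside 896 and 1109 CPM in ductal-like cells. At that depth they thus stood below the duct in primary pancreas 1 and above it in primary pancreas 2. At 3000 UMIs per cell the endocrine-like share was 67.1% (55.1 to 77.7) and 62.9% (60.9 to 64.9), below the duct in both pancreata. That draw took in INS UMIs, so endocrine-like cells kept fewer UMIs of other genes than ductal-like cells. No share without INS was taken. In cluster 6 of primary pancreas 2 (described below), where INS took 4.54% of UMIs, the share was 87.1% (83.6 to 90.1), beside 91.8% in the duct. The depth window also changed which cells were counted. In primary pancreas 2 it kept 260 of the 427 cells of cluster 6. Of the INS-led clusters 2 and 3 it kept only 55 of 1015 and 11 of 761 cells, which held 899 and 214 CPM there. In primary pancreas 1 it kept 12 of 55, 8 of 36 and 2 of 10. So the duct stood above every other class in the level over all cells and in the share with INS among the UMIs drawn. The endocrine-like level that stood above it at matched depth in primary pancreas 2 came mostly from cells of cluster 6.

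By cluster, the cells with the most ROR1 were not all ductal-like. Within the duct, the level was 977 CPM in cluster 0, led by OSGIN1 and EREG, and 992 CPM in cluster 5, led by SLC47A2 and DEFB115, both of primary pancreas 1. Cluster 8, led by TCN1 and LGR5, held 959 CPM in the 438 cells of primary pancreas 1, which were shallow (median 5005 UMIs) and held 64 LGR5 UMIs in all. In primary pancreas 2 cluster 1, led by FZD5 and KIT, held 1204 CPM and the 64 cells of cluster 23, led by PPARGC1A and FBN2, held 1905 CPM (1809 to 2005). The 17 cells of cluster 8 in primary pancreas 2 held 292 CPM (240 to 353), the lowest duct value, beside 641 CPM of LGR5 and 70.3 CPM of ROR2, against 22.3 and 5.22 CPM in the cells that primary pancreas 1 gave to the same cluster. At a clustering resolution of 1.0 the TCN1 and LGR5 cells stood in a cluster of their own, of 28 and 17 cells with 298 and 641 CPM of LGR5, and held 371 CPM (325 to 421) and 292 CPM of ROR1, below every other duct cluster of their animal at that resolution. A cluster of 388 shallow duct cells of primary pancreas 1, with 9.26 CPM of LGR5, then held 1075 CPM. At the main resolution ROR1 ran over a 6.52-fold range among the duct clusters of primary pancreas 2, where the extremes rest on small clusters.

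Outside the duct, cluster 6 of the endocrine-like cells held 589 and 1175 CPM. In its 260 cells of 5000 to 20000 UMIs in primary pancreas 2 the level was 1515 CPM, above the 1072 CPM of duct cluster 1 in the same window. Its leading genes began with SST, GCG and PPY, the hormones of islet cells other than beta cells, and went on with GRIK1 and RBFOX1. At a clustering resolution of 1.0 the cluster led by PPY, GCG and SST held only 41 and 68 cells. Another endocrine-like cluster, of 14 and 360 cells with a median of 8040 UMIs, was led by RBFOX1 and GRM5, without a hormone among its leading genes. The level of cluster 6 is therefore not read as that of cells making those hormones. The INS-led clusters 2 and 3 held 565 and 456 CPM and 307 and 237 CPM. In primary pancreas 2 the mitochondrial share was 0.898% in cluster 6 and 0.230% and 0.152% in clusters 2 and 3. Of the acinar-like clusters, cluster 18, rich in the enzyme genes PRSS2 and CLPS, held 260 and 141 CPM. Cluster 20, led by GATA4 and with 3 of 12 acinar markers passed, came from primary pancreas 1 alone and its 149 cells held 1346 CPM (1275 to 1420), above the duct cells of that animal. Its cells were shallow (median 6085 UMIs), with a mitochondrial share of 1.57%, against 0.320% in cluster 18 of that animal. What part cell quality had in these levels was not tested. The acinar-like value of 687 CPM in primary pancreas 1 is the sum of these unlike clusters. At a clustering resolution of 1.0 the GATA4-led cells had no name. A cluster of 119 cells of primary pancreas 2, led by SPHKAP and ADAD1 and with 3 of 12 acinar markers passed, took the acinar name. Acinar-like cells then held 260 CPM in primary pancreas 1 (108 cells) and 445 CPM in primary pancreas 2 (175 cells), so the order of the 2 pancreata turned. The clusters were drawn from the same cells, so none of these differences was tested.

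**Figure D3:**
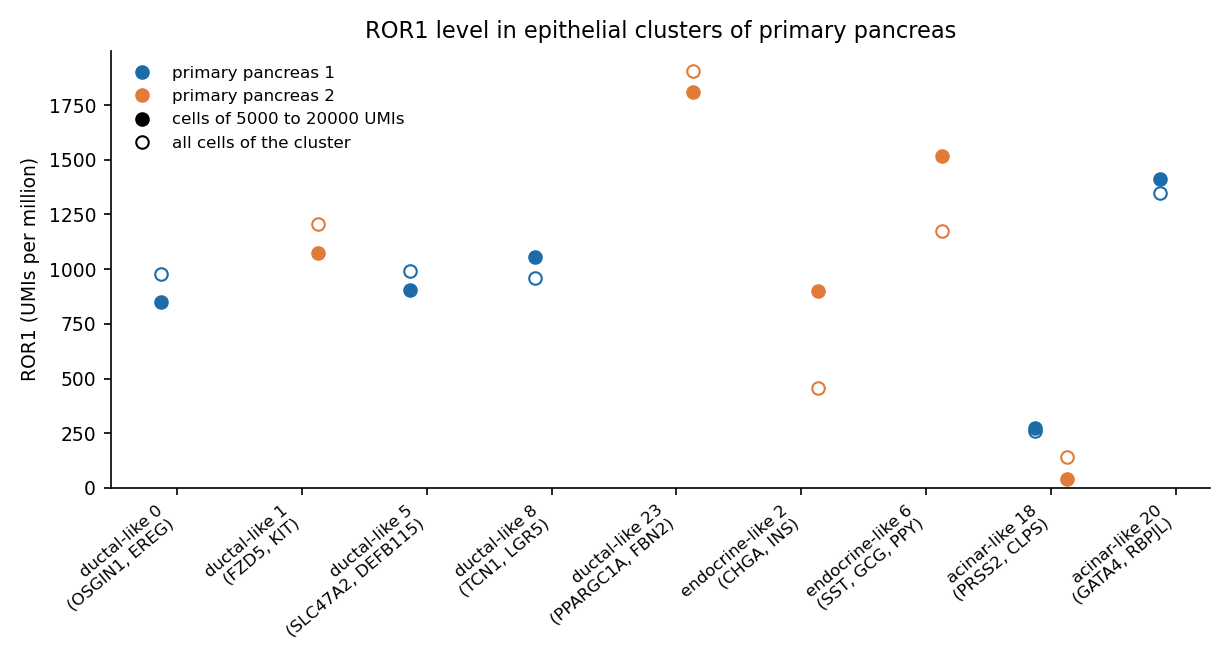
ROR1 level in CPM (y axis) in the ductal-like, endocrine-like and acinar-like clusters of primary pancreas (x axis, with leading genes), for cells of 5000 to 20000 UMIs (filled) and for all cells of the cluster (open), by library (colour); clusters with under 20 cells in that depth range are left out. At matched depth duct cluster 23, endocrine-like cluster 6 and the GATA4 cluster 20 stand above the main duct clusters, which lie between 852 and 1072 CPM. Over all cells, cluster 6 of primary pancreas 2 (1175 CPM) lies below duct cluster 1 (1204 CPM).

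PPDO cells were sorted into 7 states by marker genes. The ductal-like state, led by SPP1, CFD and TCN1 and with 6 of 8 duct markers passed, held the most ROR1, at 4.27 CPM (3.04 to 5.84, 265 cells) and 8.18 CPM (5.92 to 11.02, 165 cells). ROR1 was itself among the genes used to draw these states, so its level in them is a description. With ROR1 and the pathway genes left out of the clustering, chosen after seeing the data, the state held 4.58 CPM (236 cells) and 8.53 CPM (158 cells) and was again the highest. The mean of primary ductal-like cells was 176 times that of this state. The cornified state followed with 1.18 and 1.17 CPM, the proliferating state with 1.23 and 0.780, the WNT state with 0.724 and 0.8004, the replicating state with 0.677 and 0.483, the basal state with 0.591 and 0.437 and the glycolysis state with 0.473 and 0.170. From the cornified state downward the counting intervals of neighbours in this order overlapped.

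The level of the ductal-like state came from few cells, so the counting intervals, which take UMIs as independent, are too narrow for it. A ROR1 UMI was seen in 10 of its 265 and 13 of its 165 cells, and 5 and 4 cells with at least 3 UMIs held 34 of its 39 and 30 of its 43 UMIs. The highest cells of the PPDO libraries held 15 and 17 UMIs, beside medians of 14 and 22 in primary ductal-like cells, which were the shallower ones. Among cells with 5000 to 20000 UMIs, the state held 0 ROR1 UMIs in 40 cells of library 1 (exact Poisson interval up to 6.33 CPM) and 1 in 29 cells of library 2 (2.30 CPM, 0.0581 to 12.8), beside 2 in 68 cells of the proliferating state of library 1 (3.38 CPM, 0.409 to 12.2), so no order of the states can be read at that depth. At 3000 UMIs per cell 1.15% (0.238 to 3.32) and 1.22% (0.148 to 4.34) of the state held ROR1. This was not above the share in immune-like cells, which come from the primary libraries and give no background level for PPDO. At that depth 0 of 1536 and 0 of 713 glycolysis cells held one, which by a limit of 3 counts allows a share of up to 0.195% and 0.421%, and at full depth 15 of 1542 and 3 of 715 did.

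**Figure D4:**
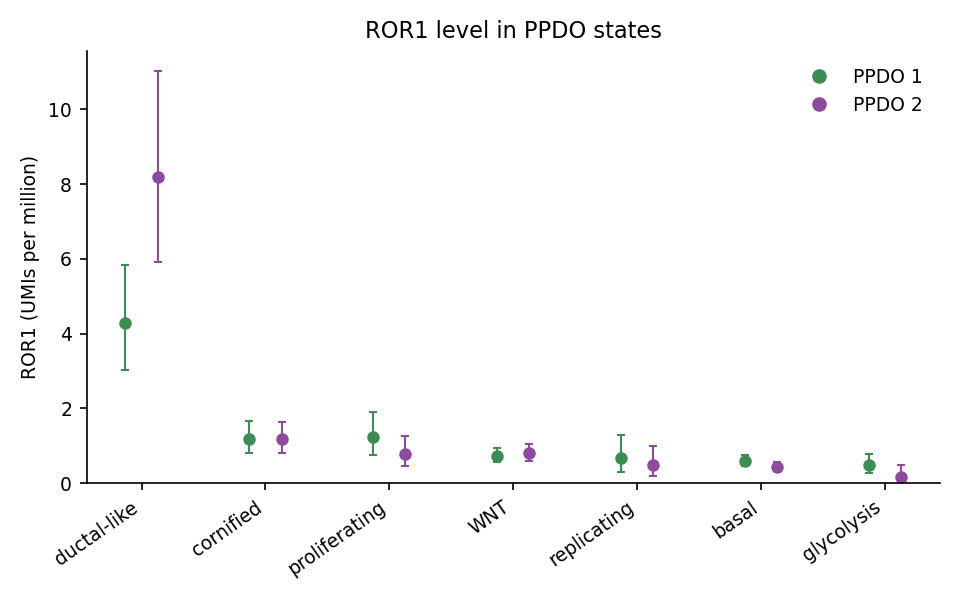
ROR1 level in CPM (y axis) in the 7 states of PPDO (x axis) for PPDO 1 and PPDO 2 (colour), with 95% exact Poisson intervals. The ductal-like state stands highest, at 4.27 and 8.18 CPM, and every other state lies at or below 1.23 CPM.

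The receptors ROR2, RYK and PTK7 went the opposite way, unlike the frizzleds described further on. PPDO and primary ductal-like cells were compared over all genes with edgeR's quasi-likelihood test on the UMI sums of each library (n = 2 against 2, Benjamini-Hochberg adjustment), and 43.8% of 23539 genes tested were called, 22.9% higher and 20.9% lower in PPDO. Beside this background, all 3 of them were called higher in PPDO. ROR2 stood at 89.7 and 51.7 CPM in PPDO and at 2.27 and 3.23 CPM in ductal-like cells, so that the groups did not overlap (log2 fold change 5.15 ± 0.34 SE, adjusted p = 0.00104). PTK7, a pseudokinase that acts with them in planar polarity, stood at 92.1 and 83.7 against 19.9 and 25.2 CPM (log2 fold change 2.43 ± 0.13, adjusted p = 0.000730). RYK, another WNT5A receptor, stood at 117 and 111 against 62.2 and 77.8 CPM (log2 fold change 1.16 ± 0.12, adjusted p = 0.00294). The fold changes of this fit include a scaling factor for each library (0.876 and 0.831 in PPDO, 1.07 and 1.28 in ductal-like cells). The CPM do not, so the fold changes lie further toward PPDO than the CPM alone would give. This weighs most in small changes such as that of RYK. The same fit gave ROR1 a log2 fold change of -9.96, which is given without a p because the gene was chosen by it. In primary pancreas ROR2 had its highest level in fibroblast-like cells, with 286 CPM beside 533 CPM of ROR1, and mural-like cells held 59.9 and 5.48 CPM. In PPDO, ROR2 was highest in the WNT state (153 and 94.3 CPM) and stood at 38.2 and 60.1 CPM in the ductal-like state, where ROR1 had its highest level.

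**Figure D5:**
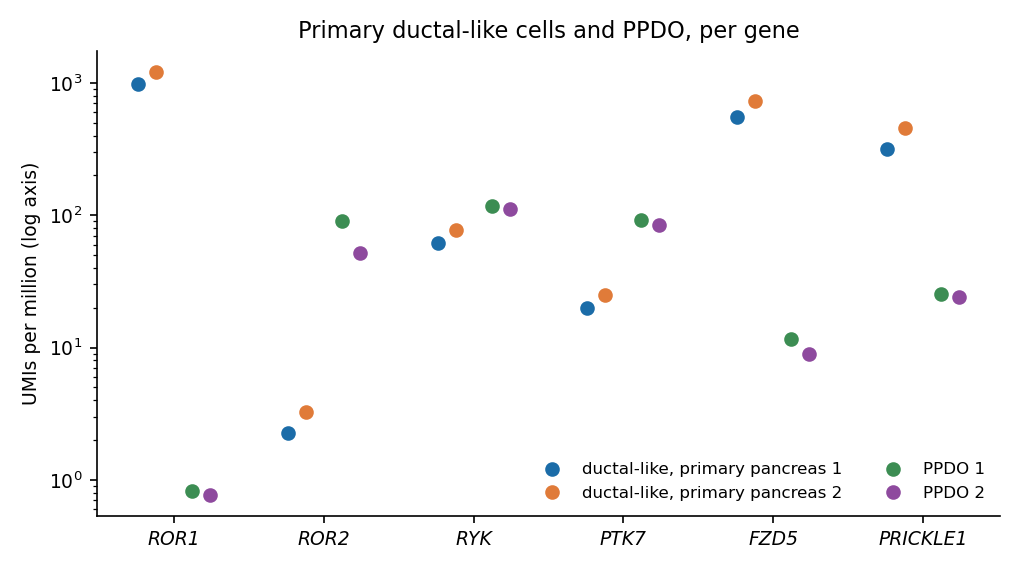
Level in CPM (log y axis) of ROR1, ROR2, RYK, PTK7, FZD5 and PRICKLE1 (x axis) in the ductal-like cells of each primary pancreas and in each PPDO library (colour). ROR1, FZD5 and PRICKLE1 lie lower in PPDO and ROR2, RYK and PTK7 higher, and in none of the 6 genes do the libraries of the groups overlap; levels of different genes are not to be compared.

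Ligands were scarce in both. WNT5A had 1144 UMIs in PPDO (1.49 and 2.66 CPM) and 1 UMI in ductal-like cells (0.0231 and 0 CPM), a ratio of 139 with a counting interval of 24.9 to 5506 (adjusted p = 0.00368, edgeR). WNT11 stood at 1.12 and 0.629 against 0.347 and 0.158 CPM (log2 fold change 2.13 ± 0.58, adjusted p = 0.0409), and this call was lost in 5 of the 12 other settings. WNT5B stood at 1.40 and 1.28 against 2.01 and 1.77 CPM and was not called (log2 fold change -0.06 ± 0.31, adjusted p = 0.887). In primary pancreas 1 the fibroblast-like cells were the class with most WNT5A and WNT5B, at 21.0 and 82.9 CPM, beside 15.5 CPM of WNT5A in Schwann-like cells. WNT4 had no symbol of its own in the tables.

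Of the 55 pathway genes tested, ROR1 aside, 19 were called higher and 16 lower in PPDO (34.5% and 29.1%, against 22.9% and 20.9% of all genes). Without PPDO library 1 the counts were 12 and 8 (21.8% and 14.5%, against 12.7% and 10.5% of all genes), and without PPDO library 2 they were 11 and 6 (20% and 10.9%, against 11.1% and 10.0%). The median log2 fold change over all genes tested was 0.01. Frizzleds, the seven-pass WNT receptors, were called lower or not at all, 5 lower and 4 not called of 9 tested (median -1.27). FZD5 stood at 11.6 and 8.98 CPM in PPDO and at 550 and 736 in ductal-like cells (log2 fold change -5.50 ± 0.20, adjusted p = 0.000376), so it and ROR1 were both low in PPDO. FZD2 (-4.19), FZD8 (-2.87), FZD7 (-1.27) and FZD3 (-0.87) were the others called.

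Over all genes 22.9% were called higher and 20.9% lower in PPDO. The membrane proteins of planar polarity were called higher in 4 of 6 cases and lower in 1 (median log2 fold change 1.44), with CELSR1 at 2.23, CELSR2 at 1.47 and VANGL1 at 1.40 and with VANGL2 at -2.14. Their cytoplasmic partners divided, with 2 higher, 2 lower and 5 not called of 9 (median -0.18), in each direction near the share called over all genes. PRICKLE1 stood at 25.5 and 24.0 CPM in PPDO and at 316 and 459 in ductal-like cells (-3.49 ± 0.17), while its relative PRICKLE2 stood at 23.3 and 18.6 against 2.89 and 3.55 CPM (3.16 ± 0.19). INVS was called higher (0.99) and DVL3 lower (-0.79). Among the effectors 1 was higher, 3 lower and 6 not called (median -0.26), and in so short a list these counts are not told apart from the shares over all genes. MAPK10, a JNK kinase, stood at 1.06, its relative MAPK9 at -0.98 and DAAM1, a formin that acts on actin, at -1.24.

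Proteins described as partners of ROR1 were called higher in 5 of 9 cases and lower in 2 (median 0.81). Over all genes 22.9% were called higher and 20.9% lower, and lists this short are given as counts only. ERBB3, a receptor tyrosine kinase, stood at 3636 and 3499 CPM in PPDO and at 818 and 1064 in ductal-like cells (log2 fold change 2.39 ± 0.15, adjusted p = 0.000935). In primary pancreas its symbol was counted in every class, with means of 385 to 1723 CPM and the highest 2 in immune-like (1392 and 2054 CPM) and endothelial-like cells (1147 and 1424 CPM), and what the feature counts was not tested. CAV1, the caveolar coat protein, was called higher (4.13 ± 0.63), and against all primary cells in place of ductal-like cells its direction turned to -0.82. YWHAZ (1.86) and CTTN (1.09), the latter an actin-binding protein, were also higher, and HCLS1 (-2.06) and ARHGEF2 (-1.48) were lower. Inhibitors of WNT divided, with 2 higher, 3 lower and 1 not called (median -0.95), beside the same shares over all genes. RNF43, a ubiquitin ligase that removes frizzleds, stood at 1.18 and SFRP5, a secreted antagonist, at -2.36. Of the 29 named genes that were called, 10 kept the call in all 12 other settings, FZD5, PRICKLE1, RYK and ERBB3 among them. The call was lost in 4 settings for DAAM1, DVL3 and ARHGEF2, in 3 for MAPK9, FZD3, FZD7, HCLS1 and YWHAZ and in 2 for MAPK10, INVS and RNF43, mostly without a PPDO library or against all primary cells. The size of the log2 fold change also rested on single libraries, since without primary pancreas 1 it was 2.64 for YWHAZ, -1.44 for HCLS1 and 2.99 for WNT11, without PPDO library 1 it was -2.08 for ARHGEF2 and -3.12 for SFRP5, and without PPDO library 2 it was 3.29 for CAV1. ROR2, PTK7, WNT5A, PRICKLE2 and SFRP5 lost theirs only against all primary cells and CTTN only without PPDO library 2.

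The genes whose levels ran most like that of ROR1 were sought over 16 sums, 1 for each class and library with at least 20 cells and PPDO included. By Pearson correlation of log2(CPM + 1) the first 10 of 12033 genes included FBXW8 (r = 0.89), MAOB (0.89), OBSL1 (0.89), SNORD123 (0.87), ESRRG (0.87), TMEM108 (0.87), BEX1 (0.86), TMEM266 (0.86) and SMARCA1 (0.86). MAOB, a monoamine oxidase of mitochondria, stood at 91.3 and 133 CPM in ductal-like cells, at 92.9 and 72.0 in endocrine-like cells and at 4.199 and 1.62 in PPDO. FBXW8, part of a ubiquitin ligase, stood at 26.1 and 28.7 CPM in ductal-like cells and at 2.60 and 2.26 in PPDO. It was higher in fibroblast-like (48.1 CPM) and mural-like cells (36.4 and 30.1 CPM). SMARCA1 stood at 157 CPM in the endocrine-like cells of both pancreata and at 35.3 and 35.6 CPM in ductal-like cells. Genes of this list thus did not all have their highest level in the duct. The points share libraries and the list depended on them, since 2 of the 10 genes stayed among the first 10 with primary classes alone, 2 and 1 with a single pancreas and 6 with a pseudocount of 5 CPM. Among the pathway genes FZD7 came closest (r = 0.53, place 478), and the other receptors had r of -0.24 (ROR2), -0.24 (PTK7) and -0.08 (RYK).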

How the data were processed

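Matrices of 4 libraries were used. The authors deposited uncorrected UMI counts for each feature in each cell, made with Cell Ranger 7.1.0 (matrix headers) on an in-house pig annotation with 3′ extensions. The submitters' processing notes list the builds Sscrofa11.1 and GRCh38. Whether reads in introns were counted is not given in the sources used here. Kept libraries held 75903136 to 300990260 UMIs. Features of a gene were summed. The study ran its limits on counts corrected for free RNA, and no such correction was made here. Limits on cells followed the study, except that both PPDO libraries had the higher of its 2 floors on features, since the labels do not tie a library to a line: at most (PPDO) or under (primary) 9000 features, a mitochondrial share of at most 3% (PPDO, at least 1000 features) or under 8% (primary, over 400 or 800 features, the latter also over 3000 UMIs), with Scrublet limits of 0.25 and 0.15, which removed 89 and 154 doublets (Scrublet was not run on PPDO). Scanpy 1.11.5 clustered cells (2000 variable genes, 20 components, Leiden resolution 0.5), and clusters were named "like" a class from marker lists. ROR1 was among the variable genes of PPDO and not of primary cells. Cell names were thus rebuilt here and may differ from the study's.

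CPM is UMIs in 1000000 of a library's cells of a class. The UMI sums were tested with edgeR 4.0.16 (TMM, glmQLFit, glmQLFTest, group only, threshold 0.05). The study states no such test. On simulated sums for this comparison of PPDO with ductal-like cells (22789 genes), edgeR recovered 32% of changes of 1.5 and 100% of changes of 3 on the log2 scale, with 10 false calls. There 200 genes were changed and 1 dispersion (0.0914) held for all genes. In the data 43.8% of genes were called, so these rates need not hold for them. Libraries, not cells, were the replicates, so p-values rest on the spread between the 2 libraries of a group. These also differed in genotype, day and sort (primary) or in line and passage (PPDO), and edgeR draws on all genes to estimate the spread. The gene, the pathway lists and the rules were chosen with earlier results of these data known. Named genes were ROR1, ROR2, RYK, PTK7, WNT5A, WNT5B and WNT11, pathway genes of at least 5 CPM called at 0.05 (up to 6 for each list), and the 10 genes most like ROR1, of which 1 is not reported here. Alternatives were DESeq2 1.42.0, RLE factors, other filters, resolutions, depths and cells, a replicate block and leaving out each library. RefSeq gave the position of ROR1 by symbol.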

Additional observations from a re-analysis of the deposited data

Results flagged for a closer look

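ROR1 was also counted in the barcodes that the limits and the doublet calls left out of the comparisons of the report, some of which the alternatives with doublets kept or fewer features took back in. In primary pancreas these barcodes held 797 CPM (95% exact Poisson interval 780 to 814, 1328 barcodes, median 1279 UMIs) in library 1 and 431 CPM (422 to 440, 3396 barcodes, median 1487 UMIs) in library 2, beside 663 and 562 CPM over all cells kept. In PPDO the left-out barcodes, with medians of 74067 and 78534 UMIs, held 1.84 CPM (1.52 to 2.20) and 1.45 CPM (1.15 to 1.81), above the 0.817 and 0.774 CPM of the cells kept. They were noted because the counts, 8876, 8919, 120 and 78 UMIs, exceed the limit that a count of 0 allows, and the reason for the levels was not tested.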

How the results depend on the processing

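With cells of 5000 to 20000 UMIs the PPDO mean was 0.595 CPM and the log2 ratio of ductal-like to PPDO 10.72, against 10.43 over all cells. Thinned to 2000, 5000 or no fixed number of UMIs, the mean share was 79.8%, 95.1% or 97.3% in ductal-like cells and 0.136%, 0.297% or 1.86% in PPDO, and the log2 ratio of shares was 8.32 at 5000 UMIs and 5.71 without thinning, against 9.04. Over all draws the share of PPDO was expected at 0.219% and the log2 ratio at 8.66. Leaving out each library in turn gave 979 to 1212 CPM and 86.8% to 91.8% in ductal-like cells, 0.774 to 0.817 CPM and 0.147% to 0.191% in PPDO, and log2 ratios of 10.27 to 10.57 and 8.87 to 9.24. Leaving out the LGR5-led duct cluster, chosen after seeing the data, gave 1103 CPM and 90.1%. The gene model alone, doublets kept, 1 filter for both pancreata, other resolutions and clustering without pathway genes moved the ductal-like mean by less than its spread, as did the gene model alone and a floor of 600 features for the PPDO mean, which the other settings cannot change. At 5000 to 20000 UMIs the endocrine-like (1059 CPM), fibroblast-like (495) and Schwann-like (126) means moved by more than their spread, which for the latter pair, of 1 library each, is counting error alone. The acinar-like mean (414 CPM, 353 at resolution 1.0) stayed within a wide spread, although the order of its 2 libraries turned. The mean of the ductal-like PPDO state, 6.23 CPM, was 6.56 with states drawn without pathway genes and 1.15 at 5000 to 20000 UMIs, where it rests on 1 UMI (both alternatives chosen after seeing the data).

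Pathway genes called, 19 higher and 16 lower, ranged from 11 to 21 and from 6 to 16 when a library was left out. The lowest counts came without PPDO 1 (12 and 8) or PPDO 2 (11 and 6), where the lone library is assumed to vary like the others. Against all primary cells 9 and 8 were called (15.8% and 14.0%), near the 11.9% and 13.7% of all genes. The estimate for WNT5B turned to 0.0080 without the low-count filter and ranged from -0.28 to 0.13 when a library was left out, that for CAV1 to -0.82 against all primary cells. The replicate numbers share only a number (correlation of deviations -0.00444), and with them as a block 18 and 13 genes were called. Of the 10 genes most like ROR1, 2 stayed with primary classes alone, 2 and 1 with primary pancreas 1 or 2 alone and 6 with a pseudocount of 5 CPM.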
